A study of Mus musculus with 8 samples.

Results

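The insulin-like growth factor (IGF) system was followed in the mouse median eminence (ME) through 10 genes, namely the ligands Igf1 and Igf2, the receptors Igf1r, Insr and Igf2r, and the binding proteins Igfbp2, Igfbp3, Igfbp4, Igfbp5 and Igfbp7. These genes were chosen by name and function and not by their values, though earlier results of these data were known. They are 10 of the 27998 genes of the single-cell table and 10 of the 55450 genes of the bulk table. The questions were which cells of the ME carry the transcripts of the ligands and which those of the receptors, and whether these transcripts differ in the ME of mice with an activated Braf kinase in tanycytes.

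The ME is the floor of the third ventricle, where hypothalamic hormones enter the portal vessels of the pituitary, and it is lined by tanycytes. IGF1 and IGF2 are secreted peptides that act on the receptor tyrosine kinase IGF1R and, with lower affinity, on the insulin receptor. IGF2R, also the cation-independent mannose 6-phosphate receptor, carries IGF2 to lysosomes. The binding proteins are secreted and hold IGFs outside the cell, where they can withhold or deliver them, and IGFBP7 binds them only weakly.

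The single-cell library pooled the ME of 10 female wild-type C57BL/6 mice (C57BL/6N in the study's methods) aged 2 months and held 990 cells with 9846289 unique molecular identifiers (UMIs), each standing for 1 captured transcript. The bulk libraries came from the ME of mice of the same strain, 3 wild-type controls and 4 Rax-CreERT2::BrafV600E mutants, with an age of 2 months in the labels for both groups. In the mutants, Rax-CreERT2 is a tamoxifen-activated Cre recombinase made in cells that express Rax, which in the ME are tanycytes, and it switches on BrafV600E, a constantly active form of the kinase. The study's methods place the dissection of both groups 2 months after tamoxifen, which adult mice received. This does not match an age of 2 months at dissection, so the age of the bulk mice is uncertain. Whether the controls carried Cre is not given in the sources used here. Gene counts cannot tell the mutant form of Braf from the normal one, so the genotypes were not checked by it.

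The bulk libraries held between 4928456 and 13816596 counts, and their levels are given as CPM, the counts of a gene per 1000000 counts of the library after scaling with TMM factors. Drawn at the equal depth of 4928456 counts, they ranged from 16771 detected genes in control 3 to 40083 in mutant 3. All 3 controls and mutants 1 and 2 carried the Y-linked Ddx3y at 69.7 to 118 CPM, while mutants 3 and 4 carried Xist at 133.6 and 133.5 CPM and Ddx3y at no more than 0.536 CPM, so the mutant group held both sexes and the control group males alone. The tanycyte markers summed to 1033 to 1345 CPM in controls and 962 to 1620 CPM in mutants, and none of the 8 was at 0 in every library. The pituitary endocrine markers Gh, Prl, Pomc, Lhb, Fshb and Pou1f1 differed widely between libraries. They summed to 706 to 15260 CPM in controls and 971 to 20160 CPM in mutants, and their part in the values below was not tested.

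The cells fell into 11 clusters, grouped without any IGF gene. Of these, 10 carried markers that name them, among them 179 tanycyte-like cells with 7 of 8 tanycyte markers, 180 cells like vascular and leptomeningeal cells (VLMCs, the fibroblasts of meninges and vessel walls), 81 macrophage- or microglia-like cells and 56 cells like pars tuberalis cells (PTCs). The VLMC-like cluster also carried 7 of 7 endothelial and 5 of 6 mural markers, and the ependymal-like cluster carried 4 of 8 tanycyte markers. The tanycyte-like and ependymal-like clusters each carried 3 of 6 astrocyte markers, and no cluster was named for astrocytes. Whether astrocytes were among the tanycyte-like cells was not tested. The PTC-like cluster carried 3 of 6 markers of other pituitary endocrine cells. A cluster of 23 cells led by Krtdap, Nov and Abcb1a had 3 of 5 arachnoid barrier markers at the level that a name needs, but that list held Slc47a1, known from earlier results to lead these cells, and the cluster was left unnamed. There was 1 library, so no test was run between clusters, and a level is given as CPM, here the UMIs of a gene per 1000000 UMIs of a cluster, with an exact Poisson 95% interval that covers counting error only.

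Igf1 transcripts came mostly from VLMC-like and macrophage- or microglia-like cells. The VLMC-like cluster held 78 of the gene's 155 UMIs, or 50.3%, at 62.8 CPM (49.7 to 78.4), and the macrophage- or microglia-like cluster held 35 at 51.6 CPM (35.9 to 71.8). The intervals of these neighbours in the order overlapped, and that of the unnamed cluster, at 29.4 CPM (11.8 to 60.5), overlapped both. Tanycyte-like cells followed at 13.2 CPM (8.44 to 19.6), below the interval of either leading cluster. An Igf1 UMI was found in 21.1% of VLMC-like cells and in 0 of 241 erythrocyte-like cells, where the interval ran up to 1.76 CPM. The median depth was 6527 UMIs in the former and 7747 in the latter, and at 3000 UMIs per cell the share of VLMC-like cells was 11.97%. In erythrocyte-like cells the haemoglobin genes Hbb-bs, Hba-a1 and Hba-a2 stood at 384700, 270400 and 195200 CPM, so few of their UMIs were left for other genes. Their levels and shares, here and below, are thus no depth-matched background.

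Within the macrophage- or microglia-like cells, Igf1 was uneven. A subcluster of 15 cells carrying 5 of 5 markers of border macrophages, the macrophages of meninges and perivascular spaces, had Igf1 at 202 CPM (124 to 312), with a UMI in 9 cells. The other subclusters both had 5 of 5 microglia markers. The one of 37 cells, led by Il1rn, H2-Ab1 and Cxcl9, had Igf1 at 40.8 CPM (22.3 to 68.4). The one of 29 cells also had 4 of 4 mast cell markers and was led by the mast cell proteases Tpsb2, Mcpt4 and Cma1, and it had Igf1 at 4.24 CPM (0.107 to 23.6). Of the border macrophage subcluster, 1 cell also held 127 UMIs of VLMC markers, and without it the level was 193 CPM (110 to 313). The VLMC-like subclusters were also unequal, at 25.6 and 48.1 CPM in the larger ones, with 56 and 59 cells, and 110 and 111 CPM in the smaller ones, with 39 and 26 cells. Their leading genes differed, with the endothelial Cldn5 and Vwf among those of the subcluster of 26 cells. The subcluster of 56 cells was led by the mural gene Rgs5. Marker counts did not set these subclusters apart, since both had 5 of 6 VLMC and 6 of 7 endothelial markers. The subcluster of 39 cells had 6 of 6 VLMC and 5 of 7 endothelial markers, and that of 59 cells had 6 of 6 and 2 of 7. In each VLMC-like subcluster, 2 of 6 mural markers reached the level that a name needs.

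Igf2 transcripts were scarce, with 60 UMIs in all. The unnamed cluster led with 54.6 CPM (29.1 to 93.3) and a UMI in 9 of 23 cells, and the VLMC-like cluster followed with 22.6 CPM (15.0 to 32.6) and 28 UMIs, with overlapping intervals. No other cluster had more than 8.84 CPM, and an Igf2 UMI was found in 1 of 241 erythrocyte-like cells. Igf1 and Igf2 were detected in the same cell in 2 of 180 VLMC-like cells, with 4.22 expected if they were detected independently.

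Igf1r, the signalling receptor of both ligands, was highest in tanycyte-like cells at 108 CPM (93.04 to 124), where 55.9% of cells had a UMI at a median depth of 7892 UMIs. The share was 1.66% in erythrocyte-like cells, whose median depth of 7747 UMIs was mostly haemoglobin. Thinned to 3000 UMIs per cell, the shares were 26.9% and 0.469%. The PTC-like, ependymal-like and unnamed clusters followed at 97.7, 62.6 and 41.96 CPM, each overlapping in its interval with its neighbour in the order. The tanycyte-like interval did not reach those of the ependymal-like cluster (40.5 to 92.4) or of the unnamed cluster (20.1 to 77.2). The 2 clusters that led in Igf1 were low, with 28.2 CPM (19.6 to 39.2) in VLMC-like and 14.7 CPM (7.07 to 27.1) in macrophage- or microglia-like cells. Igf1 and Igf1r were thus highest in different clusters. In tanycyte-like cells 13 of 179 had a UMI of both, with 11.7 expected if they were detected independently.

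Insr and Igf2r, the insulin and mannose 6-phosphate receptors, were highest in tanycyte-like cells as well, with intervals that overlapped those of the next cluster. Insr was at 29.1 CPM (21.8 to 38.1) there, and 8 further clusters lay between 7.37 and 13.0 CPM with intervals that overlapped one another. Neuron-like cells had an Insr UMI in 30.6% of cells but at 3000 UMIs per cell in 4.19%, against 10.5% of tanycyte-like cells. Igf2r was at 35.7 CPM (27.5 to 45.5) in tanycyte-like cells, with ependymal-like, NK or T cell-like and VLMC-like cells at 27.5, 22.4 and 21.8 CPM and overlapping intervals along this order. Macrophage- or microglia-like cells held 1 Igf2r UMI in 81 cells, and erythrocyte-like cells held none. Of the tanycyte-like cells, 31 had a UMI of both Igf1r and Insr and 32 of both Igf1r and Igf2r. The numbers expected if they were detected independently were 25.7 and 30.7.

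**Figure D1:**
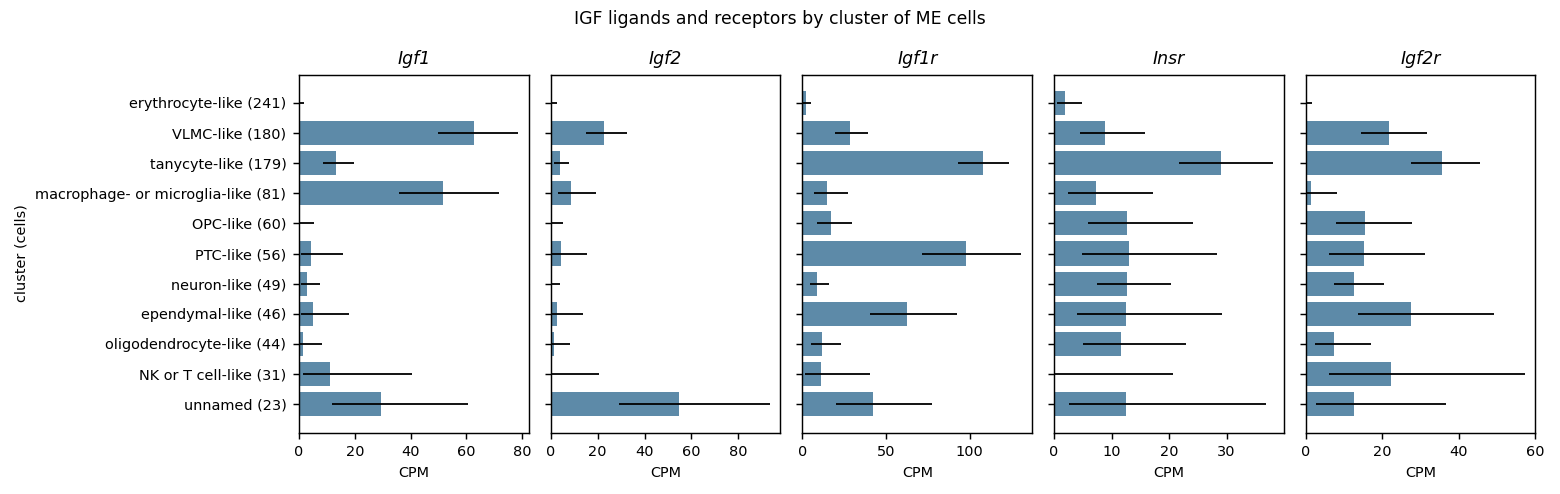
Levels of the IGF ligands and receptors in each cluster of ME cells, with bars for CPM and lines for exact Poisson 95% intervals on linear axes that differ between genes. Igf1 is highest in VLMC-like (62.8 CPM) and macrophage- or microglia-like cells (51.6 CPM), Igf2 in the unnamed cluster (54.6 CPM), and each of the receptors in tanycyte-like cells.

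The binding proteins were highest in VLMC-like cells. Igfbp5, which binds IGFs and the extracellular matrix, reached 4119 CPM (4007 to 4233) there, 2182 CPM (1998 to 2378) in the unnamed cluster, 1176 CPM (1127 to 1227) in tanycyte-like, 987 CPM (899 to 1082) in PTC-like and 305 CPM (254 to 365) in ependymal-like cells, with no overlap between neighbours in this order. The median VLMC-like cell held 18.5 Igfbp5 UMIs and the median tanycyte-like cell 8. Erythrocyte-like cells carried 52.4 CPM with a UMI in 35.3% of cells, and 5 further clusters lay between 83.8 and 134 CPM. At 3000 UMIs per cell those 5 clusters had an Igfbp5 UMI in 19.95% to 26.1% of cells, against 14.4% of erythrocyte-like cells and 85.3% of tanycyte-like cells.

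Igfbp7 was the most concentrated of the binding proteins, since VLMC-like cells held 91.0% of its 4616 UMIs. All 180 of these cells had a UMI, at 3384 CPM (3283 to 3488), whereas the unnamed cluster had 357 CPM (285 to 441). All other clusters were at 89.9 CPM or below, with tanycyte-like cells at 57.1 CPM (46.6 to 69.2) and erythrocyte-like cells at 15.7 CPM. Of the 61 Igfbp7 UMIs in macrophage- or microglia-like cells, 41 were in the cell with 127 VLMC marker UMIs.

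Igfbp2 and Igfbp4 shared one order at the top. Igfbp2 was at 545 CPM (505 to 588) in VLMC-like cells, 352.5 CPM (281 to 436) in the unnamed cluster and 112.5 CPM (97.6 to 129) in tanycyte-like cells. Igfbp4 was at 834 CPM (784 to 886), 587.5 CPM (494 to 693) and 235.5 CPM (214 to 259) in these clusters, with ependymal-like cells next at 145 CPM (110 to 188). The intervals of these leading clusters did not overlap for either gene, and erythrocyte-like cells had 4.77 CPM of Igfbp2 and 10.0 CPM of Igfbp4. In the unnamed cluster, however, 1 cell held 31 of the 84 Igfbp2 UMIs. The median there was 1 Igfbp2 UMI per cell, the same as in tanycyte-like cells.

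For Igfbp3, the main carrier of IGFs in blood, a few cells set the level of the leading cluster. The VLMC-like cluster led with 144 CPM (124 to 167) but only 24 of 180 cells had a UMI, and 1 cell held 55. Of the cluster's 179 Igfbp3 UMIs, 148 lay in the 8 cells with at least 10 UMIs of endothelial or mural markers, 7 of which had at least 10 endothelial UMIs. The other 172 cells had 26.1 CPM (17.7 to 37.0). Without those 8 cells the highest level was in cells like oligodendrocyte precursor cells (OPCs), at 65.2 CPM (47.8 to 87.0) with a UMI in 35.0% of cells, followed by tanycyte-like cells at 37.9 CPM (29.5 to 47.9), whose interval overlapped that of the OPC-like cells. In erythrocyte-like cells 13 UMIs fell in 4 of 241 cells. In the same 172 cells the other binding proteins stayed near the level of the whole cluster, with Igfbp2 at 560, Igfbp4 at 856, Igfbp5 at 4249 and Igfbp7 at 3325 CPM. The 8 cells differed, with Igfbp2 at 213, Igfbp4 at 328.5, Igfbp5 at 1121 and Igfbp7 at 4735 CPM.

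The subclusters of VLMC-like cells differed in some members. Igfbp5 was at 2299 CPM (2119 to 2489) in the subcluster of 39 cells and between 4216 and 4938 CPM in the others, while Igfbp7 was at 2847 CPM (2687 to 3014) in the subcluster of 59 cells, 3279 CPM (3102 to 3463) in that of 56, and 3973 and 4022 CPM in the smaller ones. Igfbp7 was thus higher, and Igfbp5 lower, in the subcluster of 39 cells than in that of 59, with intervals apart, whereas those of Igf1 overlapped. Igf2, with 28 UMIs, was at 40.95 CPM (23.4 to 66.5) in the subcluster of 56 cells, which also held 116 of the 179 Igfbp3 UMIs, and its interval overlapped those of the other subclusters, at 9.63 to 29.3 CPM.

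Single cells often carried several binding proteins. At least 3 of the 5 were detected in 175 of 180 VLMC-like cells, 21 of 23 cells of the unnamed cluster and 114 of 179 tanycyte-like cells, and in 3 of 241 erythrocyte-like cells. In neuron-like cells, the deepest with a median of 31422 UMIs, this held for 17 of 49. VLMC-like cells thus combined ligand and binding protein transcripts, and tanycyte-like cells receptor and binding protein transcripts. The latter also held for PTC-like cells, with Igf1r at 97.7 CPM and Igfbp5 at 987 CPM. Neither pattern was exclusive, as tanycyte-like cells held 24 of the 155 Igf1 UMIs and 33 of 180 VLMC-like cells had an Igf1r UMI.

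**Figure D2:**
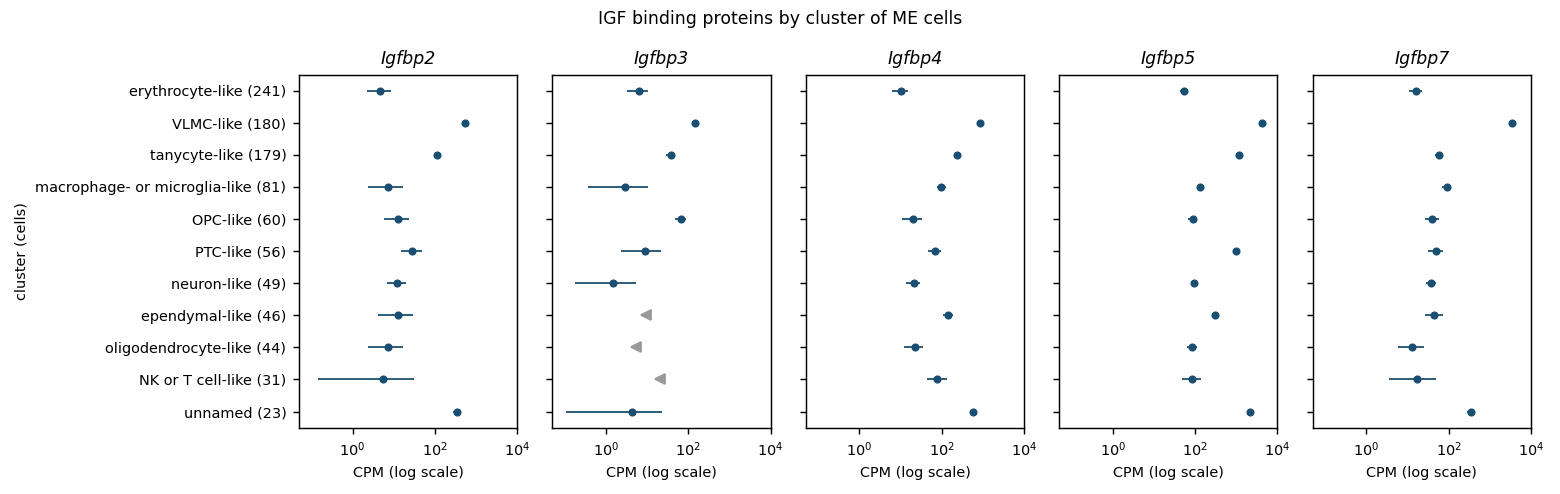
Levels of the binding proteins in each cluster of ME cells, with points for CPM on a log scale, lines for exact Poisson 95% intervals and grey triangles at the upper bound where no UMI was found. VLMC-like cells are highest for each gene, and tanycyte-like cells range from 37.9 CPM for Igfbp3 to 1176 CPM for Igfbp5.

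Genes with the most similar pattern over the 11 clusters were sought among genes with at least 100 UMIs, by Pearson's r of log2(CPM + 1). The clusters share 1 library and differ in depth, so r is a description only. Igfbp7 was most like Dcn (r = 0.966), Cemip (0.964) and Bgn (0.946), where Dcn and Bgn encode proteoglycans of the matrix. Igf1 was most like Cebpb (0.972), Ppp1r15a (0.967) and Eva1b (0.956), and Igf1r was most like Cox7a1 (0.962), Lgr4 (0.957) and 2010320M18Rik (0.944). Igfbp5 was most like Wwtr1 (0.963), Kitl (0.953) and Ifitm2 (0.947), and Igfbp2 was most like Angptl4 (0.977), Igfbp5 (0.943) and Ddr2 (0.938). For Igfbp4 they were Rbms2, Fcgrt and Mxra8 (0.941 to 0.954), for Insr Caml, 2610507B11Rik and Rnf139 (0.973 or more), and for Igf2r Sesn3, Gnpnat1 and Gbf1 (0.938 to 0.958). Igfbp3 had no gene as close, with Spry4 at 0.865, Col4a1 at 0.792 and Mmp2 at 0.770.

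Other genes of the pathway were read from 7 lists of 56 genes. Of the other ligands, receptors and binding proteins, Igfbp6 was at 2530 CPM (2332 to 2741) in the unnamed cluster, with a UMI in all 23 cells, and at 433 CPM in VLMC-like cells, while Ins1, Igfbp1 and Igfals had no UMI. Htra1, a secreted protease that cleaves binding proteins, was at 352.5 CPM in the unnamed cluster and 260 CPM in tanycyte-like cells, against 92.4 CPM in all cells outside the unnamed cluster. Among substrates and adaptors, Irs4, a docking protein of both receptors, stood at 313 CPM in neuron-like cells against 26.8 CPM elsewhere, and Grb14, an inhibitor of the insulin receptor, stood at 922.5 CPM in oligodendrocyte-like cells against 6.77 CPM elsewhere. The phosphoinositide 3-kinase subunits Pik3r3 and Pik3r2 were highest in OPC-like cells at 166 and 85.1 CPM.

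In the growth hormone axis, which drives Igf1 in liver, the receptor Ghr was at 167 CPM in neuron-like cells and 61.5 CPM in tanycyte-like cells, and the feedback inhibitor Cish was at 83.8 CPM in NK or T cell-like cells. Of the imprinted growth genes, Mest reached 1345 CPM (1293 to 1400) in tanycyte-like cells against 98.0 CPM elsewhere, and Plagl1, a transcription factor, reached 229 CPM in neuron-like cells. Of the uptake receptors of the lipoprotein receptor family, Lrp1 was highest in VLMC-like cells at 465 CPM. Lrp2 was highest in tanycyte-like cells at 29.6 CPM against 1.37 CPM elsewhere, but these cells carried more Lrp1, at 151 CPM.

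In the bulk libraries, 3 of the binding proteins, Igfbp3, Igfbp5 and Igfbp7, were lower in every mutant than in every control, and none of the members passed the threshold over all genes. Of the 10 members, 9 passed the filter on low counts and Igf2 did not. By edgeR's quasi-likelihood test with Benjamini-Hochberg adjustment, 0 of the 10 members passed an adjusted p of 0.05 between mutant and control ME, beside 0% of the 20466 genes tested. At an unadjusted p under 0.05 there were 2 members, Igfbp5 and Igfbp7, beside 8.12% of all genes tested (1661 genes). Every mutant library was below every control library in 3 of the 10 members, beside 3.18% of genes tested, and above every control library in 0 of the 10, beside 5.83%. DESeq2 called 2 members and 301 genes on the same counts, and limma-voom called 0 of both. The median log2 fold change, mutant minus control, was 0.13 over all genes tested.

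Igfbp5 was at 363, 339 and 342.5 CPM in controls 1 to 3 and at 130, 212.5, 168 and 114 CPM in mutants 1 to 4. The groups did not overlap, and the controls lay close together. The mean was 348 ± 13.0 CPM (SD, n = 3) in controls and 156 ± 43.9 CPM (SD, n = 4) in mutants, a log2 fold change of -1.16 (95% interval -1.79 to -0.52) with an adjusted p of 0.359 by edgeR. DESeq2 gave -1.155 with an adjusted p of 0.0119, and over all settings tried the adjusted p ran from 0.0119 to 0.9999. Igfbp5 lies on chromosome 1 from 72857932 to 72874884 (GRCm38), next to Igfbp2 on the opposite strand.

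Igfbp7 was at 72.2, 59.4 and 164 CPM in controls and at 47.2, 7.71, 6.51 and 7.33 CPM in mutants. Mutant 1 stood far above the other mutants yet below every control. The log2 fold change was -2.51 (-4.09 to -0.93) with an adjusted p of 0.428 by edgeR. Without mutant 1 it was -3.75 with an adjusted p of 0.15, and without control 3 it was -1.89 with an adjusted p of 0.507. With the number of detected genes as a covariate it was -1.77. DESeq2 gave -2.565 with an adjusted p of 0.0167, and edgeR with no filter on low counts gave -2.49 with an adjusted p of 4.573e-06, the lowest over all settings, of which the highest was 0.9999. Igfbp7, on chromosome 5 from 77349240 to 77408041, shares 85 exon bases, or 7.03% of its exons, with Polr2b on the other strand, and Smart-seq2 libraries do not keep strand.

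Igfbp3 was at 45.1, 25.7 and 35.5 CPM in controls and at 21.8, 12.8, 22.7 and 25.02 CPM in mutants. The groups did not overlap, but control 2 and mutant 4 differed by less than 1 CPM. The log2 fold change was -0.78 (-1.58 to 0.01) with an adjusted p of 0.62 by edgeR.

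Markers of other cells also differed between the groups. The 6 VLMC markers summed to 1171 to 2936 CPM in controls and 454 to 817 CPM in mutants, and the 7 endothelial markers to 284 to 453 CPM in controls and 83.99 to 156 CPM in mutants, with no marker of either list at 0 in every library. Neither sum overlapped between groups, 5 of 6 VLMC and 6 of 7 endothelial markers had a negative log2 fold change, and 0 passed the threshold. Most of the VLMC sum was Dcn, at 826 to 2545 CPM in controls. Plvap, at 144 to 229 CPM, was the largest part of the endothelial sum in controls. Taken singly, Lum, Dcn, Col1a1, Kdr, Emcn and Plvap did not overlap between groups, and the other markers of both lists did. The OPC markers moved the other way, from 209 to 531 CPM in controls to 712 to 1839 CPM in mutants, while tanycyte and mural sums overlapped. Single tanycyte markers went opposite ways, with 5 of 8 higher and 3 lower in mutants, and 0 passed the threshold. Crym was higher in every mutant than in every control (log2 fold change 1.885), and Scn7a had a log2 fold change of -0.87. Control 1 had the lowest VLMC sum of the controls (1171 CPM) but their highest endothelial sum (453 CPM). It also had their highest Igfbp5 and Igfbp3 (363 and 45.1 CPM). Control 3 had the highest VLMC sum (2936 CPM), the lowest endothelial sum of the controls (284 CPM) and the highest Igfbp7 (164 CPM). VLMC-like cells held 65.7% of Igfbp2 and 55.9% of Igfbp4 UMIs, and these 2 had log2 fold changes of 0.04 and 0.45. The shares were 56.7% for Igfbp3, 58.0% for Igfbp5 and 91.0% for Igfbp7. The part of any of these cell types in the values of Igfbp3, Igfbp5 and Igfbp7 was not tested. In bulk tissue, fewer cells of a type and less RNA per cell cannot be told apart.

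Sex moved with the groups too. In the 5 libraries with Y-linked counts, 3 controls against mutants 1 and 2, the log2 fold change was -1.02 (-1.95 to -0.09) for Igfbp5, -1.84 (-3.69 to 0.01) for Igfbp7 and -1.03 (-2.24 to 0.18) for Igfbp3. By edgeR 0 members passed the threshold there, beside 0 of the 19640 genes tested, so the count says nothing particular to the members.

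**Figure D3:**
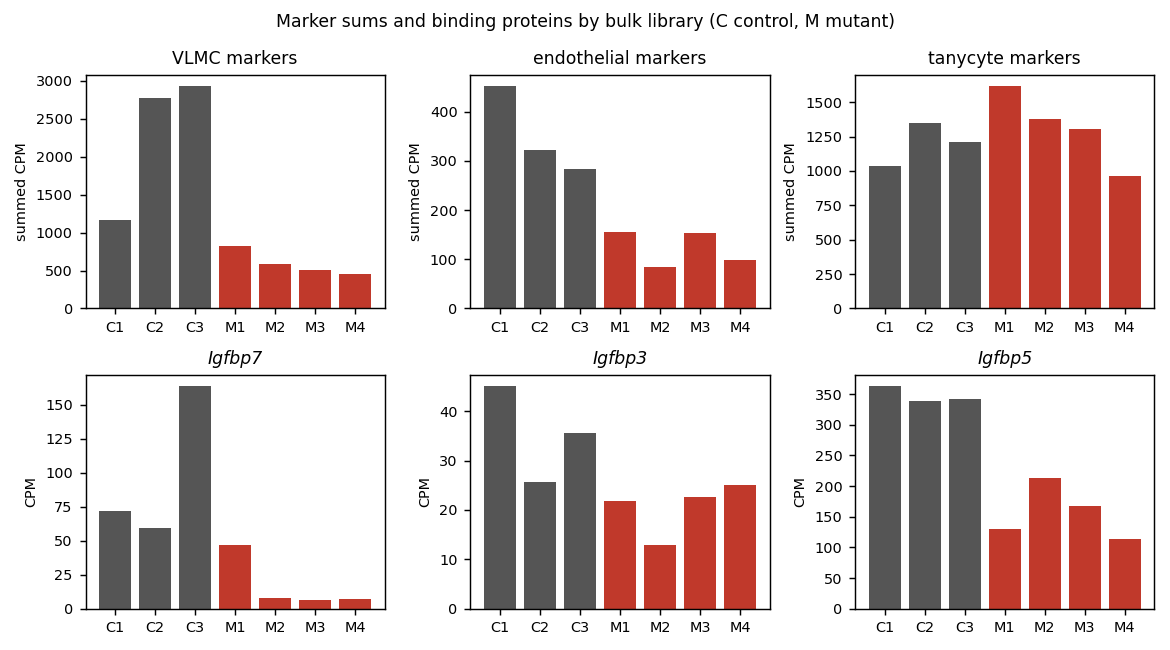
Summed CPM of the VLMC, endothelial and tanycyte markers (top) and CPM of Igfbp7, Igfbp3 and Igfbp5 (bottom) in each bulk library, with controls C1 to C3 in grey and mutants M1 to M4 in red. The VLMC and endothelial sums and the 3 binding proteins are lower in each mutant than in each control, and the tanycyte sums overlap.

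The other members overlapped between groups. Igfbp4 was at 280, 210 and 108 CPM in controls and 338, 388, 220 and 145 CPM in mutants, a log2 fold change of 0.45 (-0.47 to 1.38), and Igfbp2 was at 41.8, 85.5 and 115 CPM in controls and 111, 34.6, 80.5 and 108 CPM in mutants, a log2 fold change of 0.04 (-0.95 to 1.04). The ranges of the groups overlapped in both. The adjusted p was 0.839 for Igfbp4 and 0.986 for Igfbp2 by edgeR.

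Among receptors, Igf1r was at 43.6, 23.9 and 13.3 CPM in controls and at 24.0, 31.9, 48.9 and 45.6 CPM in mutants. The ranges overlapped, with control 1 above mutants 1 and 2, and the log2 fold change was 0.48 (-0.49 to 1.46, adjusted p = 0.839 by edgeR). With the number of detected genes as a covariate it turned to -0.26, and in the 5 libraries with Y-linked counts it was 0.05. Without control 1 it was 0.98 (0.01 to 1.96, adjusted p = 0.169 by edgeR), where the median over all genes tested was 0.43. Without control 3 it was 0.15, where that median was 0.09. Insr, from 11.5 to 33.2 CPM in controls and 16.6 to 31.3 CPM in mutants, had a log2 fold change of 0.10 (-0.89 to 1.08), and Igf2r, from 5.31 to 22.7 CPM in controls and 9.19 to 25.01 CPM in mutants, had 0.04 (-1.19 to 1.27). Both changed sign when single libraries were left out. The PTC markers, of the other cells with most Igf1r, summed to 2314 to 12850 CPM in controls and 709 to 3805 CPM in mutants, and their part in the Igf1r value was not tested.

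Igf1 was at 17.5, 18.7 and 9.76 CPM in controls and at 10.1, 8.96, 8.35 and 14.7 CPM in mutants. The ranges overlapped, and the log2 fold change was -0.54 (-1.525 to 0.44, adjusted p = 0.81 by edgeR). The border macrophage markers marked the subcluster with the highest Igf1 level, which held 20 of the 155 Igf1 UMIs. In bulk these markers summed to 45.1 to 166 CPM in controls and 22.7 to 50.9 CPM in mutants, with overlap. Most of the control sum was Cbr2, at 142, 79.2 and 27.3 CPM in controls 1 to 3. Mrc1 had a mean of 8.10 CPM in controls and 8.04 CPM in mutants. Of the 5 markers, 4 were lower and 1 was higher in mutants, and 0 passed the threshold. The markers of macrophages or microglia summed to 1209 to 3819 CPM in controls and 754 to 1827 CPM in mutants, with overlap. Of these 7 markers, 7 were lower in mutants and 0 passed the threshold. The VLMC sums are given above. The part of macrophages, microglia and VLMCs in the Igf1 value was not tested. Igf2 had 4, 0 and 0 counts in controls and 1, 5, 1 and 4 in mutants, and it did not pass the filter on low counts. Of its exon bases, 62.8% are shared with Gm49394 on the same strand, which has 0 counts in every library, and the Igf2 counts are uncertain for this reason.

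**Figure D4:**
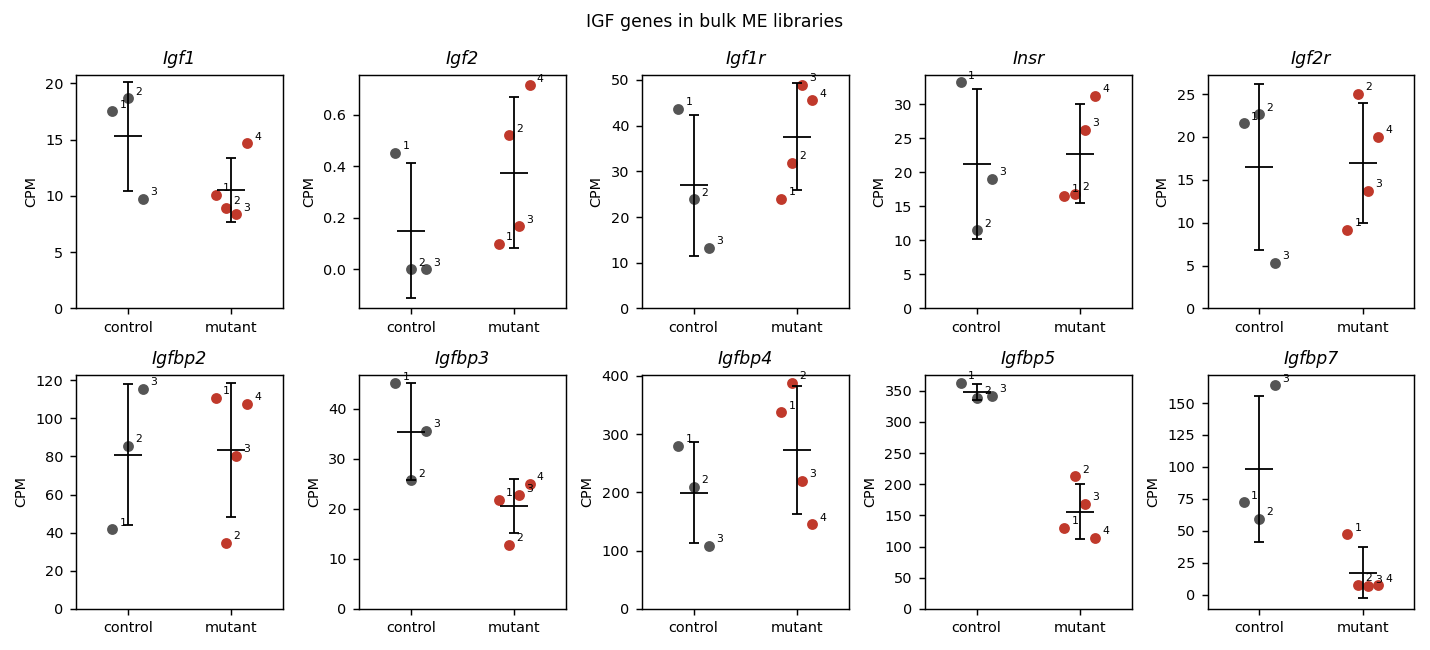
CPM of each member in the 3 control (grey) and 4 mutant (red) libraries, with library numbers beside the points and black lines for the mean and SD. Igfbp5 is at 339 to 363 CPM in controls and 114 to 212.5 CPM in mutants, whereas the groups overlap for all members other than Igfbp3, Igfbp5 and Igfbp7.

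**Figure D5:**
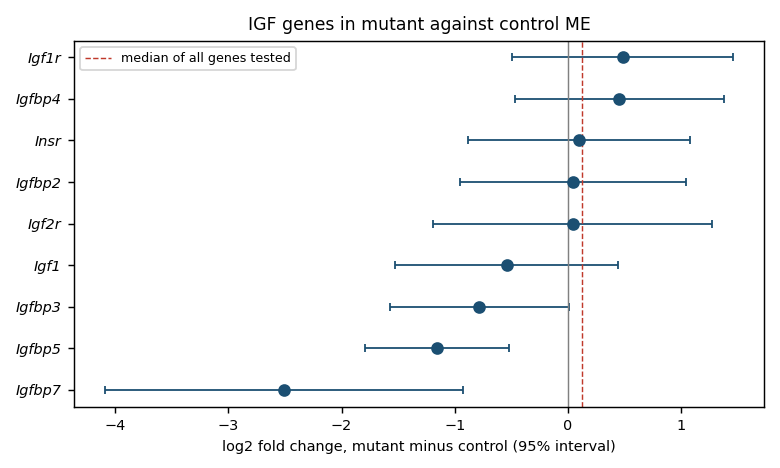
Log2 fold change of the 9 members tested, mutant minus control, with points for the estimate by edgeR and bars for its 95% interval, a grey line at 0 and a dashed line at the median of all genes tested (0.13). The intervals of Igfbp5 and Igfbp7 lie below 0, and those of the other 7 include 0.

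Levels were compared between genes per length, as CPM per kilobase of exon in GENCODE M21. In controls the binding proteins came first, with Igfbp7 at 81.5 ± 47.1, Igfbp5 at 58.0 ± 2.17, Igfbp4 at 45.1 ± 19.6 and Igfbp2 at 43.8 ± 20.04 (SD, n = 3), and the ranges of these 4 overlapped. Igfbp3 followed at 11.3 ± 3.10, and the receptors and Igf1 lay between 1.55 and 1.77 with overlapping ranges. In mutants, Igfbp4 was first at 61.7 ± 24.96, Igfbp2 second at 45.2 ± 19.1, Igfbp5 at 26.0 ± 7.31 and Igfbp7 at 14.2 ± 16.5 (SD, n = 4). Binding protein transcripts were thus more abundant per length than those of ligands and receptors in each group.

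Of the 56 wider genes, 52 were tested and 0 passed the adjusted threshold by edgeR. At an unadjusted p under 0.05 there were 5 of 52, a share close to the 8.12% of all genes tested, and they are named here after their values were seen. Cdkn1c, an imprinted inhibitor of cyclin-dependent kinases, was at 35.1, 31.2 and 178 CPM in controls and 14.1 to 19.8 CPM in mutants with no overlap, a log2 fold change of -2.28 (-3.53 to -1.03, adjusted p = 0.359 by edgeR). It was the single wider gene that DESeq2 called (adjusted p = 0.0116), and edgeR with no filter on low counts called it alone of these genes too (adjusted p = 4.847e-05). Igfbp6 (-1.08) and M6pr, the other mannose 6-phosphate receptor (-0.80), had negative log2 fold changes, and the insulin receptor substrate Irs2 (1.36) and the kinase Akt2 (0.96) had positive ones, with adjusted p from 0.52 to 0.612 by edgeR. The median log2 fold change was 0.31 over the 52 genes and 0.04 over the 9 members tested, beside 0.13 over all genes. By list, 6 of 19 genes of the PI3K, AKT and mTOR pathway and 2 of 9 substrates and adaptors had a negative log2 fold change, beside 8859 of 20466 genes tested.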

How the data were processed

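Single-cell UMI counts, 1 library, were deposited as the authors wrote them with Cell Ranger (2.0.1 in the submitters' processing notes, which also name DESeq2, GRCm38 and mm10), and the raw read counts of each Ensembl gene in 7 bulk Smart-seq2 libraries were deposited without normalization. The aligner and counter of the bulk reads are not given in the sources used here. Symbols were matched through the single-cell gene table, where 27645 of 55450 bulk identifiers had one, all 10 members included, and 0 value columns of the bulk table were left unused. The members, lists, tests and alternatives were chosen with earlier results of these data known, as were the 3 markers at 3 times the level of other cells that a cluster name needs. A cluster that met this for arachnoid barrier cells alone was left unnamed.

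Cells were clustered in Seurat 5.3.0 (20 components, resolution 0.8, 4820 variable genes after IGF genes were left out). The VLMC-like and macrophage- or microglia-like cells were clustered again (10 components). Scrublet in scanpy 1.11.5 called 3 of 990 cells (0.303%) doublets, and they were kept. Shares were also computed for cells thinned to 3000 UMIs, and 990 of 990 cells were deeper. All 990 barcodes are distinct.

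For the bulk libraries the quasi-likelihood test of edgeR 4.0.16 was used under R 4.3.3, with TMM factors, a filter on low counts by group and Benjamini-Hochberg adjustment over 20466 genes. The 95% interval is the log2 fold change ± a t quantile times its standard error from the F statistic. Alternatives were DESeq2 1.42.0, limma-voom (limma 3.58.1), upper-quartile factors, library sizes alone, other filters, the replicate number as a block, each library left out and the number of detected genes as covariate. Cells with endothelial or mural markers left out, and libraries with Y-linked counts alone, were added after the data were seen. The Poisson intervals were checked on simulated counts. The study's methods name 3 control and 4 mutant mice, as many as the bulk libraries, and p-values measure the spread between these libraries. The floor of 3 counts is 0.257 to 0.536 CPM in a bulk library and 1.43 to 16.8 CPM in a cluster. The named genes are the members, wider genes past the bulk threshold, in single cells the 2 genes of each wider list with the largest ratio of the highest cluster to other cells (pseudocount 1 CPM, at least 20 UMIs), and the 3 genes most like each member with at least 100 UMIs.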

Additional observations from a re-analysis of the deposited data

Results flagged for a closer look

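Igfbp7 in mutant 1, at 47.2 CPM, lay far from the other 3 mutants, which were between 6.51 and 7.71 CPM, with the gap to the nearest taking 0.971 of the range of the group. The 95% limit that this gap passed is itself passed by chance in about 1 in 20 groups, and the mutant values of all 10 members were examined. Mutant 1 also had the highest VLMC sum (817 CPM) of the mutants and the fewest genes at equal depth (23618), and its part in the Igfbp7 value was not tested.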

How the results depend on the processing

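Of 144 log2 fold changes of members under other settings, 126 kept their direction and side of the threshold, 15 turned and 3 newly passed. DESeq2 called 2 members (Igfbp5 at -1.155, Igfbp7 at -2.565), 1 wider gene and 301 genes in all. With no filter on low counts, edgeR called 1 member (Igfbp7 at -2.491), 1 wider gene and 240 of 47682 genes. Over all genes, upper-quartile factors gave 1 call, the number of detected genes as covariate 1, library sizes alone 3 and at least 10 counts in every library 13, with 0 members among them in each. Leaving out 1 library gave 0 to 45 calls, 45 without control 1 and 16 without control 3, and 0 members. The covariate turned Igf1r (-0.2553), Insr (-0.4468) and Igf2r (-0.6128), the libraries with Y-linked counts alone turned Insr (-0.3445) and Igfbp2 (-0.1495), and no filter turned Igfbp2 (-0.009735). Leave-one-out ranges were -0.2031 to 0.5385 for Insr, -0.3663 to 0.3471 for Igf2r and -0.2966 to 0.3993 for Igfbp2, and without a change of sign 0.1505 to 0.981 for Igf1r, -1.334 to -1.024 for Igfbp5 and -3.752 to -1.894 for Igfbp7. The cause of these changes was not tested. The share of genes with a positive log2 fold change was 56.7%. It was 64.1% with library sizes alone, 66.5% with no filter and 64.2% by limma-voom. There the median over all genes moved by 0.13, 0.46 and 0.23. Without control 1 the share was 62.5% and the median moved by 0.30. The largest downward move was -0.13, with at least 10 counts in every library. A log2 fold change is thus to be read against the median of its setting.

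The replicate numbers did not pair the libraries, since same-numbered libraries correlated at -0.447, -0.0761 and -0.231. The fit with the replicate block, on 6 libraries, gave 0 calls, -1.054 for Igfbp5, -2.723 for Igfbp7 and a turned sign for Igfbp2 (-0.1543).

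In cells, 68 of 76 levels stayed within their interval. The cluster that then held most cells of the leading one had Igf1r at 85.45 CPM with 30 components and 84.98 with all variable genes, where the highest Igf1r, 113.9 and 114.4 CPM, was in another cluster of mostly tanycyte-like cells. In the same way Igfbp3 was 37.81 with 10 components, 177.0 with equal weight of cells and 26.06 without the cells with endothelial or mural markers, and Igfbp5 was 3962 at resolution 1.2 (highest cluster 4471, also mostly VLMC-like cells), 4238 with equal weight and 4249 without those cells. At resolution 1.2 another cluster led for Igf2, mostly of VLMC-like cells (54.88 CPM). With 10 components others led for Insr (32.3 CPM) and Igfbp3 (335.6 CPM), mostly of PTC-like cells. Here mostly means the main cluster with the largest number of cells, which need not be a majority. PTC-like cells held 4 Igfbp3 UMIs at 8.68 CPM in the main clusters, so that Igfbp3 level came mainly from other cells of the new cluster. Thinned to 3000 UMIs, its leading cluster held a UMI in 11.97% of cells for Igf1, 18.06% for Igf2, 26.89% for Igf1r, 10.49% for Insr, 12.52% for Igf2r, 72.10% for Igfbp2 and 86.46% for Igfbp4. Igf1, Igf2, Insr and Igf2r, with 60 to 155 UMIs, had overlapping intervals between all neighbours in the order, the leading cluster included. The same held for Igf1r, with 359 UMIs. Only clusters further apart in the order could be told apart.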
